A study of Mus musculus with 6 samples.

Results

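The genes described here are those of the matrix metalloproteinases, the ADAMTS proteases and their tissue inhibitors, chosen as every gene of the deposited table whose symbol is Mmp, Adamts or Timp followed directly by a digit. This rule took 46 of 21671 named genes, namely 23 Mmp, 19 Adamts and 4 Timp genes, and left out the Adamtsl genes, whose products lack a protease domain. RNA was measured by ribosome-depleted sequencing in mouse tumours under the skin, raised by injecting transformed hepatoblasts into mice of the strain labelled CD1 nude ho. Hepatoblasts are the embryonic precursors of hepatocytes and bile duct cells, and nude mice lack mature T cells but keep their other host cells, including fibroblasts, vessels and myeloid cells. By the protocol given for every sample, the injected cells carried the vector TtRMPVIR shST18, in which doxycycline turns on a hairpin RNA against ST18, a zinc finger transcription factor. There were 3 untreated libraries, with the genotype label wild type, and 3 libraries labelled ST18 knockdown, taken 4 h after a first oral dose of doxycycline (200 mg/ml in 300 µl of water). A group given doxycycline without the hairpin is not among those compared here, so the drug, the gavage and the hairpin cannot be told apart, and the labels give neither the age of the mice nor whether the cells came from 1 clone. The labels do not state that the libraries of a group are from different mice. The p-values therefore set the group difference against the spread between these libraries, which may not be a spread between mice.

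Matrix metalloproteinases (MMPs) are zinc proteases, secreted or held at the cell surface, that cut collagens, gelatin, elastin and many other extracellular proteins. They are made as inactive precursors whose propeptide covers the zinc of the active site, and are switched on by removal of that propeptide. The ADAMTS enzymes are related secreted zinc proteases with thrombospondin repeats that hold them in the matrix, and include the enzymes that cut large proteoglycans and the propeptides of fibrillar collagens. Tissue inhibitors of metalloproteinases (TIMPs) block the active site of MMPs, and some of them also that of certain ADAMTS enzymes. In tumours and healing tissue the proteases are made largely by fibroblasts and myeloid cells as well as by tumour cells.

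Library totals ran from 12090309 to 16169043 counts. St18, the target of the hairpin, did not fall after doxycycline, with 12, 23 and 19 untreated counts and 34, 12 and 61 counts in the libraries labelled ST18 knockdown (log2 fold change 1.03, edgeR adjusted p = 0.298), so each direction below is between labelled groups. Of the markers of the hepatoblast lineage, Krt8, Krt18, Sox9 and Spp1 had 339 to 1433 counts in each library, while Alb, Ttr and Krt7 had 0 to 9 counts and Hnf4a had 0 to 16. Markers of several other cell types differed between the groups or between libraries. Of 15 skeletal muscle markers, 9 were higher after doxycycline, and their summed level was 87.7 to 242 CPM (counts scaled to a common library total) without and 454 to 3079 CPM with doxycycline. Of 12 fibroblast markers 5 were higher (1102 to 1125 against 1501 to 1788 CPM), of 12 macrophage markers 3 were higher (430 to 517 against 531 to 771 CPM), and of 7 neutrophil markers tested, Mmp8 and Mmp9 left out, 1 was lower (99.2 to 157 against 40.4 to 74.6 CPM). Of the markers in these 4 lists only Ltf was at 0, in doxycycline replicate 2. Of 10 endothelial markers 2 were higher (Tek and Cdh5), and of 5 mast cell markers tested Mcpt4 was higher and Kit lower. The keratinocyte genes Krt5, Krt14 and Krt1 were high in untreated replicate 2 (410, 352 and 275 counts) and doxycycline replicate 1 (299, 284 and 329) and had 0 to 5 counts in the other libraries. In bulk tissue a smaller number of cells of a type and less RNA per cell cannot be told apart.

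Most of these genes did not pass the test between the groups. The share that did, 2 of 35 tested in either direction, was near that of all genes. They were 2 of the 6 tested ADAMTS proteases of large proteoglycans. A filter on low counts kept 35 of the 46 for testing. By edgeR's quasi-likelihood test, with Benjamini-Hochberg adjustment over 14809 genes and a threshold of 0.05, Adamts5 and Adamts15 rose and none fell. Over all genes tested, 2.84% were higher and 2.18% lower by this rule, 5.02% in either direction. At an unadjusted p under 0.05, 11 members were higher and 4 lower, against 13.1% and 10.8% of all genes (23.9% in either direction). DESeq2 called 5 members higher and 1 lower, against 5.74% and 5.17% of all genes by that tool. With limma-voom 1 was higher and 0 lower, against 1.76% and 1.94% of all genes. The libraries of the groups did not overlap for 7 members with doxycycline above and 4 with doxycycline below, against 15.2% and 14.4% of all genes (29.6% in either direction). The median log2 fold change, positive where doxycycline was higher, was 0.10 over the 35 members tested and 0.01 over all genes tested. By family it was -0.08 for 17 Mmp genes (7 positive, 10 negative), 0.45 for 15 Adamts genes (11 positive, 4 negative) and 0.28 for 3 Timp genes, a description of genes that passed the filter. Over all genes tested 51.1% were positive. Adamts16 and Adamts20, both positive, each reached the filter level in 1 untreated and 2 doxycycline libraries.

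**Figure D1:**
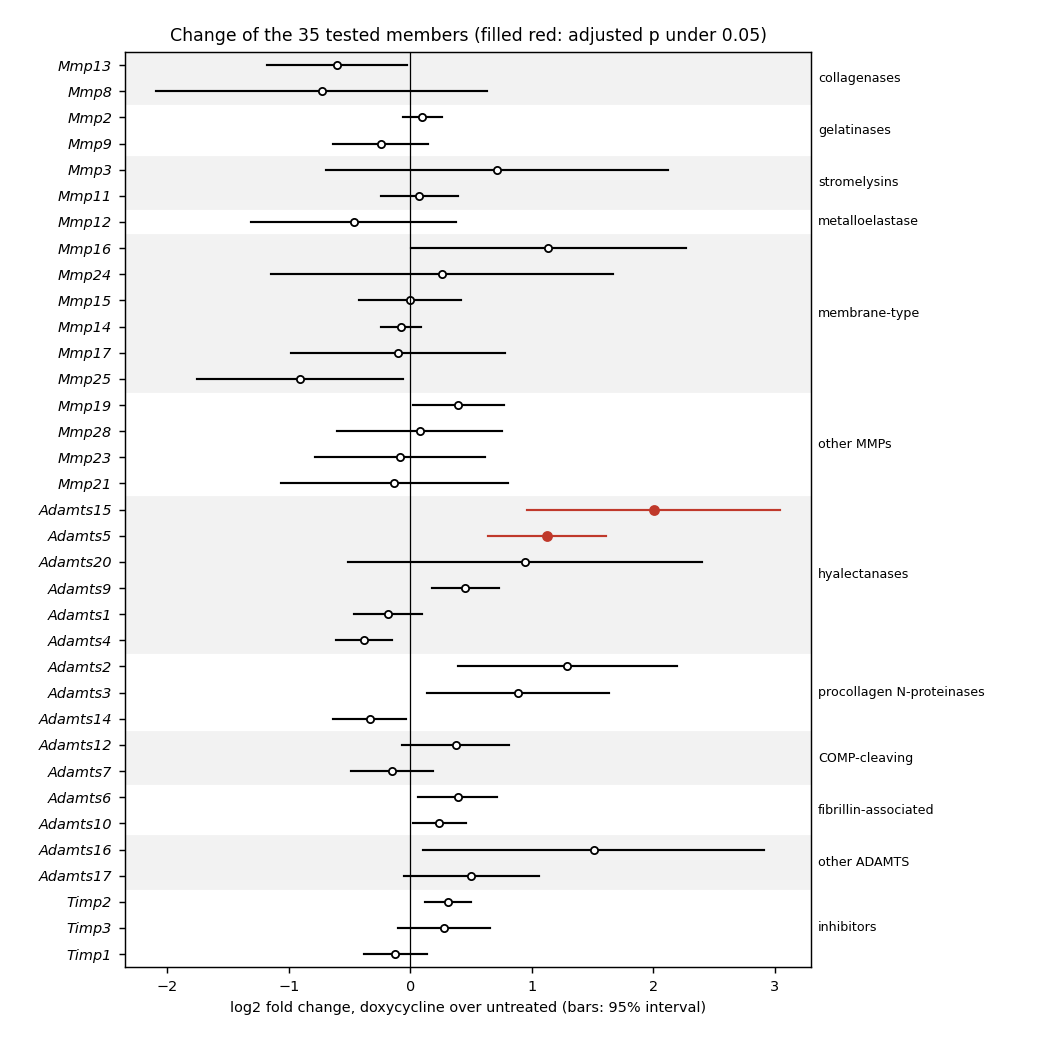
The log2 fold change of each tested member (x axis, doxycycline over untreated) is plotted with its 95% interval, grouped by the role of the protein. Adamts15 and Adamts5, filled in red, are the 2 members past the threshold. Both lie in the group that cuts large proteoglycans, where 6 members were tested and 2 were negative.

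Levels between genes are compared per kilobase of exonic length, as CPM per kb. In untreated tumours Mmp2, the gelatinase A gene, stood highest at 74.2 CPM per kb, followed by the inhibitors Timp1 (53.3) and Timp2 (36.4), the membrane-bound collagenase gene Mmp14 (29.2), and then Adamts1 (22.4), Adamts14, Adamts4 (19.2) and Adamts10 (18.8). Among the last 4, each gene's untreated libraries overlap those of the next on this scale. Adamts5 (1.57) and Adamts15 (0.329) were among the low members before doxycycline and remained below Adamts1, Adamts4 and Adamts9 after it, at 3.42 and 1.32 CPM per kb. The 11 members not tested lay at or below 0.214 CPM per kb in the untreated group.

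**Figure D2:**
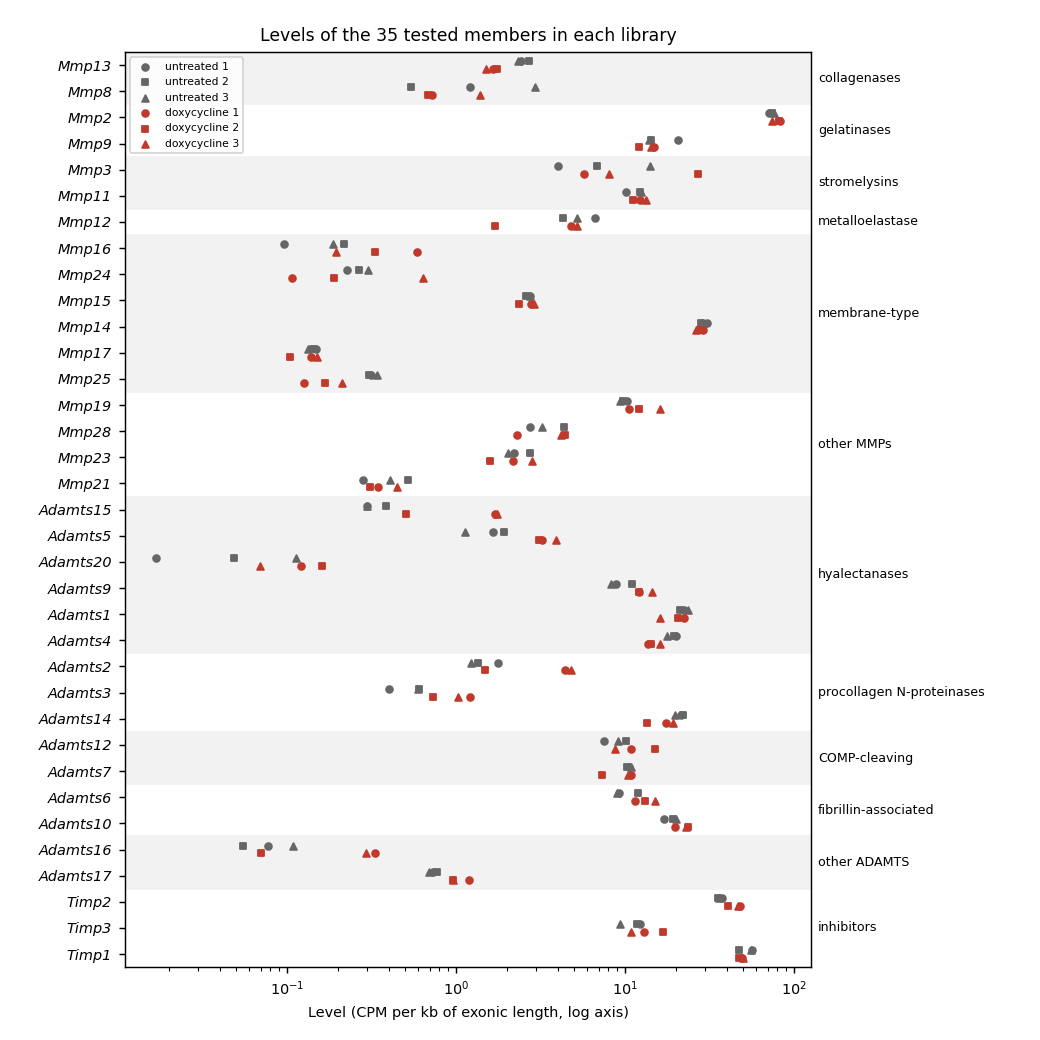
The level of each tested member in each library is plotted as CPM per kb of exonic length on a log axis, with untreated libraries in grey and doxycycline libraries in red and 1 marker shape per replicate number. Mmp2, Timp1, Timp2 and Mmp14 stand highest in every library, and the red points of Adamts5 and Adamts15 lie to the right of the grey ones.

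The hyalectanases cut aggrecan, versican and related proteoglycans that bind hyaluronan. Adamts5, which encodes the main aggrecan-cutting enzyme of mouse cartilage and also cuts versican, had 237, 329 and 181 counts without and 416, 489 and 674 with doxycycline, each set in the order of replicates 1, 2 and 3 as in all such sets that follow. All doxycycline libraries lay above all untreated ones. Its level went from 16.9 ± 4.32 to 36.9 ± 4.68 CPM (SD, n = 3 each), which is 1.12 on the log2 scale with an SE of 0.21 and a 95% interval of 0.64 to 1.61 (edgeR adjusted p = 0.0273). Adamts15, another proteoglycan-cutting enzyme, had 41, 64 and 46 untreated counts and 210, 77 and 291 after doxycycline. The groups did not overlap, but doxycycline replicate 2, at 5.29 CPM, lay near the highest untreated library at 4.02 CPM while the others stood at 17.6 and 18.3 CPM. Its level was 3.41 ± 0.532 without and 13.7 ± 7.30 CPM with doxycycline, a 4.01-fold rise whose log2 value had an SE of 0.46 and a 95% interval of 0.96 to 3.04 (edgeR adjusted p = 0.0455).

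Both rises kept their size when 1 library was left out, at 0.93 to 1.28 on the log2 scale for Adamts5 and 1.74 to 2.39 for Adamts15, but 5 of the 6 removals ended both calls. Leaving out untreated replicate 1, 2 or 3 gave Adamts5 an edgeR adjusted p of 0.126, 0.0690 or 0.116, and leaving out doxycycline replicate 1 or 3 gave 0.0529 or 0.0852. For Adamts15 the same removals gave 0.187, 0.132, 0.219, 0.101 and 0.123. Over all genes, 11, 27 and 14 were called higher without untreated replicate 1, 2 or 3, against 421 with all libraries. Without doxycycline replicate 2 both genes passed (0.00842 for Adamts5 and 6.67e-04 for Adamts15), and limma-voom did not call Adamts15 (adjusted p = 0.112). In the same libraries 5 of 12 fibroblast markers and 9 of 15 muscle markers were higher, and the part of these cells in the rise of Adamts5 and Adamts15 was not tested. The summed muscle markers were highest in doxycycline replicate 2 (3079 CPM), the library in which Adamts15 was lowest of its group. Summed fibroblast markers were lowest of the group there (1501 against 1782 and 1788 CPM). Within that list, however, Pdgfra and Col3a1 were highest there (229 and 599 CPM). Summed macrophage (531 against 667 and 771 CPM), vessel wall (457 against 554 and 561 CPM) and neutrophil markers were also lowest there. Summed endothelial markers were not (434 against 398 and 480 CPM). Which of these cells bear on Adamts15 was not tested.

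The other hyalectanase genes did not pass, and they pointed in both directions. Adamts9, which encodes a versican-cutting enzyme of developing tissue, had 1766, 2656 and 1859 untreated counts and 2182, 2667 and 3455 after doxycycline, which do not overlap once scaled by library (log2 fold change 0.45, 95% interval 0.18 to 0.73, edgeR adjusted p = 0.0697). Adamts4, aggrecanase-1, had 1280, 1503 and 1271 untreated counts against 783, 1001 and 1243, and all its doxycycline levels lay below the untreated ones (92.4 ± 5.81 and 70.8 ± 6.40 CPM, log2 fold change -0.38, 95% interval -0.61 to -0.15, edgeR adjusted p = 0.0663). Adamts1, an enzyme needed for ovulation and kidney development, had 1567, 1784 and 1870 counts against 1417, 1595 and 1374, with overlapping levels of 119 ± 7.04 and 105 ± 16.8 CPM. Adamts20 had 2, 7 and 15 counts against 13, 21 and 10, and Adamts8 had 3 to 10 against 2 to 6 and was not tested. In edgeR, Adamts9 passed without doxycycline replicate 2 (adjusted p = 0.0343) and with no filter on low counts (0.0347), and Adamts4 passed without that library (0.0461). DESeq2 called both on all libraries (adjusted p = 0.0191 for Adamts9 and 0.0155 for Adamts4).

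Adamts5 and its neighbour Adamts1 did not share a level. In the RefSeq table of assembly GRCm38.p6, Adamts1 and Adamts5 lie next to each other among protein-coding genes of chromosome 16, as do Adamts15 and Adamts8 on chromosome 9. Per kilobase, Adamts5 stood at 0.0743, 0.0906 and 0.0476 of the level of Adamts1 in the untreated libraries and at 0.144, 0.151 and 0.241 of it after doxycycline. Adamts15 and Adamts8 stood at 0.329 and 0.0960 CPM per kb without and 1.32 and 0.0691 with doxycycline, and Adamts8 was too low to test. Relative to Adamts4, Adamts5 went from 0.0812 ± 0.0171 to 0.232 ± 0.0127 (SD, n = 3 each), with no overlap between the groups. These ratios were chosen after the values were seen and are given without a test.

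**Figure D3:**
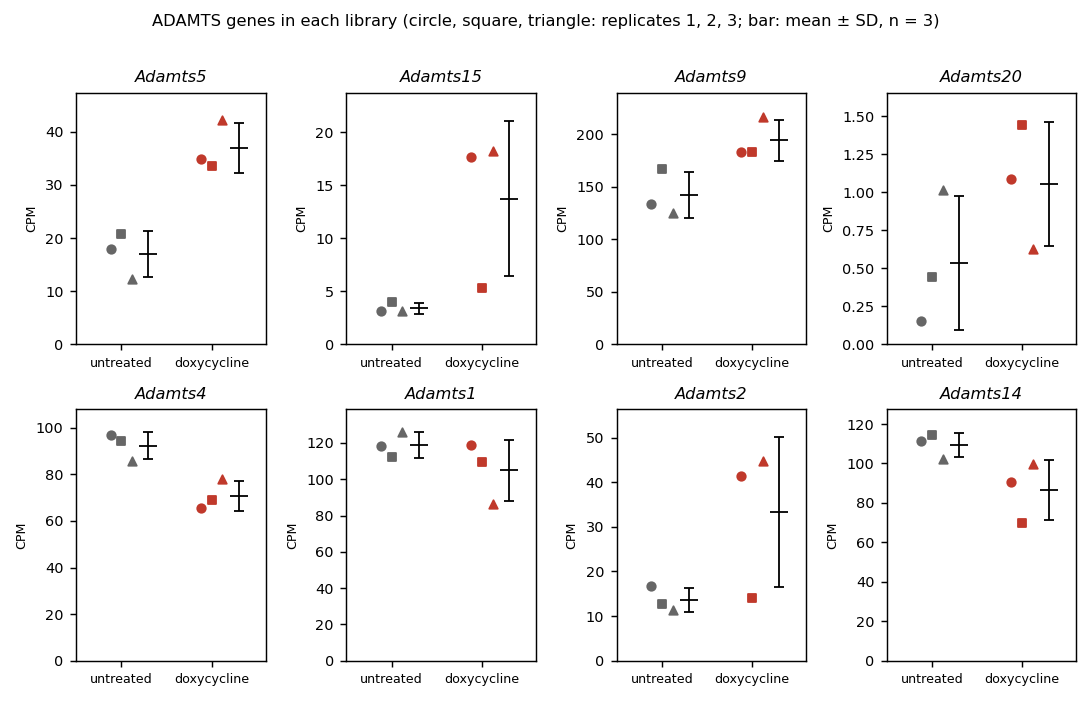
CPM of 8 ADAMTS genes in each library is plotted from 0 for untreated (grey) and doxycycline (red) libraries, with the mean ± SD beside each group (n = 3). Adamts5 and Adamts15 are higher in every doxycycline library, Adamts4 and Adamts14 are lower in every one, and doxycycline replicate 2 (square) lies apart for Adamts15 and Adamts2.

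The procollagen N-proteinases remove the amino-terminal propeptide of fibrillar collagens. Adamts2, whose loss causes fragile skin in a form of Ehlers-Danlos syndrome, had 220, 202 and 170 untreated counts and 493, 203 and 712 after doxycycline. Doxycycline replicates 1 and 3 stood above every untreated library, and replicate 2 lay within the untreated range. Its levels were 13.6 ± 2.70 and 33.3 ± 16.9 CPM (log2 fold change 1.29, 95% interval 0.39 to 2.19, edgeR adjusted p = 0.0967). Without doxycycline replicate 2 it passed (1.66, adjusted p = 8.09e-04), and DESeq2 called it on all libraries (adjusted p = 0.00671). Adamts3, which processes type II collagen and the lymphatic growth factor VEGF-C, had 29, 52 and 48 counts against 79, 58 and 89, which do not overlap on the CPM scale (log2 fold change 0.89, edgeR adjusted p = 0.148). Adamts14, the third enzyme of this kind, pointed the other way, with 1470, 1822 and 1516 untreated counts against 1080, 1017 and 1588 and no overlap in CPM (log2 fold change -0.34, edgeR adjusted p = 0.166). Per kilobase it was the most abundant of these 3 genes in both groups, at 16.7 CPM per kb after doxycycline.

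The remaining ADAMTS genes did not pass the threshold. Among those whose products cut cartilage oligomeric matrix protein, Adamts12 had 1082, 1754 and 1475 untreated counts against 1427, 2385 and 1514, and Adamts7 had 876, 1033 and 1017 against 815, 672 and 1040. Both sets overlap. Adamts6 and Adamts10, linked to fibrillin microfibrils, had log2 fold changes of 0.39 (95% interval 0.07 to 0.71, edgeR adjusted p = 0.144) and 0.24 (0.02 to 0.46, adjusted p = 0.178). Adamts10 was the more abundant, with 1872, 2528 and 2448 counts against 1939, 2841 and 3044, and Adamts6 had 948, 1492 and 1046 against 1065, 1498 and 1868. Adamts16, a gene of gonad and kidney development, followed the pattern of Adamts2, with 7, 6 and 11 counts against 27, 7 and 32 (log2 fold change 1.51, 95% interval 0.11 to 2.91, edgeR adjusted p = 0.181), and passed without doxycycline replicate 2 (1.94, adjusted p = 0.0270). Adamts17 had 75, 96 and 80 counts against 111, 109 and 119, which do not overlap (log2 fold change 0.50, edgeR adjusted p = 0.256). Adamts13, which cuts von Willebrand factor and is made mainly in liver stellate cells, had 3, 6 and 5 counts against 3, 2 and 6 and was not tested. Nor were Adamts18 (2 to 6 counts in any library) and Adamts19 (0 to 10 counts).

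Of the secreted MMPs, none passed the test. The 10 genes Mmp13, Mmp12, Mmp1b, Mmp3, Mmp1a, Mmp10, Mmp8, Mmp27, Mmp20 and Mmp7 form a cluster on mouse chromosome 9, of which Mmp13, Mmp12, Mmp3 and Mmp8 were tested. Promoters are shown for the first 3 of these and for Mmp10, another stromelysin gene that was too low to test, because most of the cluster holds the same pair of motifs. In the RefSeq promoter table (build GRCm38.p6), which covers 32 members from 250 bases before to 50 bases after each start, TGANTCA, the AP-1 motif, was found in 8 members, all of them in the cluster (25% of the 32, against 8.97% of all genes in the table). TATAAA, the TATA box, was found in 11 (34.4% against 15.7%), and the same 8 genes held both in 1 promoter, against 1.84% of all genes. The exceptions in the cluster were Mmp8, with no AP-1 match and a TATAAA only on the other strand at -3, and Mmp27, with neither. A loose NF-kB pattern was found in 23 (71.9% against 53.5%). Only the G bases at its start and the C bases at its end were fixed, with any bases between. A match to this pattern, found in 53.5% of all genes, does not by itself mark an NF-kB site. AGGAAG (PEA3/ETS) was found in 15 (46.9% against 38.4%). Both strands were searched, and TGANTCA reads the same on both strands, so each site there counts once. Shown 5′ to 3′ are the 120 bases before the start of Mmp13 (chr9:7272394-7272513), Mmp3 (chr9:7445702-7445821) and Mmp10 (chr9:7502222-7502341) and the same stretch before the later of 2 listed starts of Mmp12 (chr9:7347254-7347373), all on the plus strand, with the AP-1 letters and, for Mmp13, Mmp3 and Mmp10, the TATA box letters in capitals. The TATAAA of Mmp12 begins at +5, after the start and outside the stretch shown.
Mmp13: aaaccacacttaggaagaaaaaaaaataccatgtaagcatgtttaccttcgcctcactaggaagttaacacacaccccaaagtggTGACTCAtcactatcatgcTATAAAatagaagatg
Mmp3: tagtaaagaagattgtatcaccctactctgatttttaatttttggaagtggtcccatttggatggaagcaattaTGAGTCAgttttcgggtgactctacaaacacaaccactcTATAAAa
Mmp10: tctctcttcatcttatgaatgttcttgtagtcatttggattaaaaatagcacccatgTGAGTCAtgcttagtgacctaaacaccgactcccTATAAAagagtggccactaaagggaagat
Mmp12: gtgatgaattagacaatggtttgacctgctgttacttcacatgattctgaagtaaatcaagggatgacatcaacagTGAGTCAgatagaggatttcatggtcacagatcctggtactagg
The AP-1 letters begin at -35 in Mmp13, -46 in Mmp3, -63 in Mmp10 and -44 in Mmp12, counted from the listed start. The TATAAA letters begin at -16 in Mmp13, -7 in Mmp3 and -29 in Mmp10. These matches are letters in a window and say nothing about which factor was bound or whether a TATAAA works as a TATA box.

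Collagenases start the breakdown of fibrillar collagen. Mmp13, the main interstitial collagenase of the mouse, had 86, 115 and 92 untreated counts and 53, 68 and 64 after doxycycline, with every doxycycline level below every untreated one (6.65 ± 0.526 and 4.38 ± 0.334 CPM). The difference did not pass over all genes (log2 fold change -0.60, 95% interval -1.18 to -0.03, edgeR adjusted p = 0.193). Mmp8, the collagenase of neutrophils, had 39, 21 and 105 counts against 21, 24 and 54 and overlapped (log2 fold change -0.73, edgeR adjusted p = 0.506). The sign turned without untreated replicate 3 (0.10), the library with 105 counts. The neutrophil marker list, with 1 of 7 tested genes lower (Csf3r), moved beside it, and the part of neutrophils in the Mmp8 values was not tested. Mmp1a and Mmp1b, near copies of each other whose reads could be split in counting, had 0 to 2 counts in any library. No Mmp1b count was found over the 3 doxycycline libraries, which allows a level of up to 0.0707 CPM by counting error alone.

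Gelatinases digest denatured collagen and basement membrane collagen. Mmp2 was the most abundant member, with 3186, 3978 and 3835 counts against 3333, 3990 and 3994, and its groups overlapped at 250 ± 8.95 and 268 ± 15.4 CPM. The log2 fold change of 0.10 had a 95% interval of -0.06 to 0.26. Mmp9, gelatinase B, which neutrophils store in granules and macrophages secrete, had 970, 808 and 729 counts against 630, 621 and 809, and its levels overlapped at 57.8 ± 13.5 and 48.7 ± 5.37 CPM (log2 fold change -0.24, 95% interval -0.64 to 0.15, edgeR adjusted p = 0.430).

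Stromelysins cut proteoglycans, laminin and other MMP precursors. Mmp3, stromelysin-1, had 96, 196 and 377 counts against 124, 713 and 231, so the libraries spread widely within both groups. Doxycycline replicate 2 alone stood above the untreated range. Its log2 fold change of 0.71 (95% interval -0.70 to 2.12, edgeR adjusted p = 0.529) turned to -0.27 without that library. Mmp11, stromelysin-3, which is activated inside the cell by furin, had 376, 545 and 511 counts against 406, 455 and 591 (log2 fold change 0.07, 95% interval -0.24 to 0.39). Mmp10, stromelysin-2, had 5 to 6 counts against 1 to 5 and was not tested.

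Mmp12, the elastase of macrophages, had 642, 494 and 559 untreated counts and 413, 179 and 605 after doxycycline. Replicate 2 of the doxycycline group was the lowest of all 6 libraries, at 12.3 CPM against 34.6 and 37.9 CPM in the others of its group. The difference did not pass (log2 fold change -0.47, 95% interval -1.31 to 0.38, edgeR adjusted p = 0.489). Of 12 macrophage markers 3 were higher, and by sign 10 were positive and 2 negative (Cd68 at -0.30 and Cd14 at -0.42). Cd68, Cd14, Itgam and Fcgr1 were, like Mmp12, lowest of all 6 libraries in doxycycline replicate 2, and the other macrophage markers were not. The part of macrophages in the Mmp12 values was not tested. Mmp7, matrilysin, an MMP of epithelial cells, had no count in the untreated libraries, which allows up to 0.0683 CPM by counting error alone, and 2 counts in doxycycline replicate 3. Mmp20, the enamel protease, had 0 or 1 count per library, and Mmp27 had 1, 4 and 2 counts against 15, 3 and 9. None of these was tested.

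The membrane-type MMPs sit on the cell surface. Mmp14 (MT1-MMP), which activates the Mmp2 precursor in a complex with Timp2, had 2406, 2660 and 2560 counts against 2070, 2408 and 2493 (174 ± 7.43 and 165 ± 8.61 CPM). The groups overlapped, and the 95% interval of the log2 fold change was -0.24 to 0.09. Mmp15 overlapped too, with 196 to 223 counts against 180 to 250 (log2 fold change -0.00, 95% interval -0.42 to 0.42). Mmp25, a lipid-anchored MMP of neutrophils, had 22, 26 and 27 counts against 8, 13 and 18, with no overlap (log2 fold change -0.91, 95% interval -1.76 to -0.06, edgeR adjusted p = 0.184). The summed neutrophil markers given above moved beside it, and their part was not tested. Mmp16 had 11, 30 and 24 counts against 61, 42 and 27 (log2 fold change 1.14, edgeR adjusted p = 0.209) and overlapped. Mmp24 stood at 14, 20 and 21 counts against 6, 13 and 48, so its positive log2 fold change of 0.26 rests on doxycycline replicate 3 and was -0.81 without it, and Mmp17 had 10 to 16 counts in every library.

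Among the other MMPs Mmp19, a broad-range protease first described in synovium, had 484, 550 and 492 counts against 444, 625 and 907. Once scaled, all doxycycline libraries lay above the untreated ones (34.8 ± 1.71 and 45.7 ± 10.1 CPM), without passing the threshold (log2 fold change 0.39, 95% interval 0.02 to 0.77, edgeR adjusted p = 0.191). Mmp28, epilysin, had 140 to 270 counts against 107 to 260, Mmp23 had 68 to 102 against 54 to 105, and Mmp21 had 10 to 22 against 11 to 19. For all 3 the 95% interval of the log2 fold change included 0 and the groups overlapped. Exons of Mmp19, Mmp11, Mmp12, Mmp24, Mmp28, Adamts7, Timp3 and Timp4 overlap, in GENCODE M21, genes on the other strand that are in the deposited table, and since strand use is not stated, reads there cannot be told apart.

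No inhibitor gene passed the threshold. Timp2, which inhibits most MMPs and helps Mmp14 activate Mmp2, had 1947, 2192 and 2078 untreated counts and 2233, 2323 and 2889 after doxycycline. All its doxycycline levels lay above the untreated ones, at 176 ± 14.5 against 142 ± 4.89 CPM (log2 fold change 0.31, 95% interval 0.13 to 0.50, edgeR adjusted p = 0.0664). It passed without doxycycline replicate 2 (adjusted p = 0.0104), with upper-quartile scaling (0.0453) and with offsets for GC content and length (0.0330), and DESeq2 called it (0.0364). Timp3, which is bound to the matrix and inhibits Adamts4 and Adamts5 as well as MMPs, had 1320, 1539 and 1133 counts against 1254, 1994 and 1419 and overlapped (0.28, 95% interval -0.10 to 0.66). Timp1 had 667, 672 and 732 counts against 524, 612 and 707 and overlapped as well (-0.12, 95% interval -0.38 to 0.14). Timp4 had 0, 3 and 8 counts against 6, 13 and 11 and was not tested. Summed per kilobase, the Mmp genes stood at 1.68 ± 0.102 times the Timp genes without and 1.64 ± 0.107 times with doxycycline, and the Adamts genes at 1.25 ± 0.121 and 1.22 ± 0.0431 times (SD, n = 3 each). Both pairs overlap. The level of Adamts5 relative to its inhibitor Timp3 was 0.136, 0.161 and 0.121 in the untreated libraries and 0.250, 0.185 and 0.358 after doxycycline, with no overlap, a description chosen after the values were seen.

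The doxycycline libraries differed more among themselves than the untreated ones. The coefficient of variation had a median of 14.4% without and 19.4% with doxycycline over the members tested, against 8.17% and 14.8% over all genes tested, and was larger after doxycycline in 25 of 35 members. Doxycycline replicates 1, 2 and 3 were the lowest of the group for 9, 17 and 9 of these members. Replicate 2 was lowest for Adamts15, Adamts2, Adamts16, Adamts3, Adamts14 and Mmp12 among others, and highest for 7 members that include Mmp3, Adamts12 and Timp3. Adamts15, Adamts2 and Adamts16 had highest to lowest ratios of 3.45, 3.20 and 4.71 within the group, whereas Timp1, Mmp14 and Mmp2 had ratios of 1.05, 1.11 and 1.12. Without doxycycline replicate 2, edgeR called 6 members higher, adding Adamts2, Adamts9, Adamts16 and Timp2, and 1 lower, Adamts4. Calls over all genes rose as well in that fit, to 8.18% higher and 5.69% lower.

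**Figure D4:**
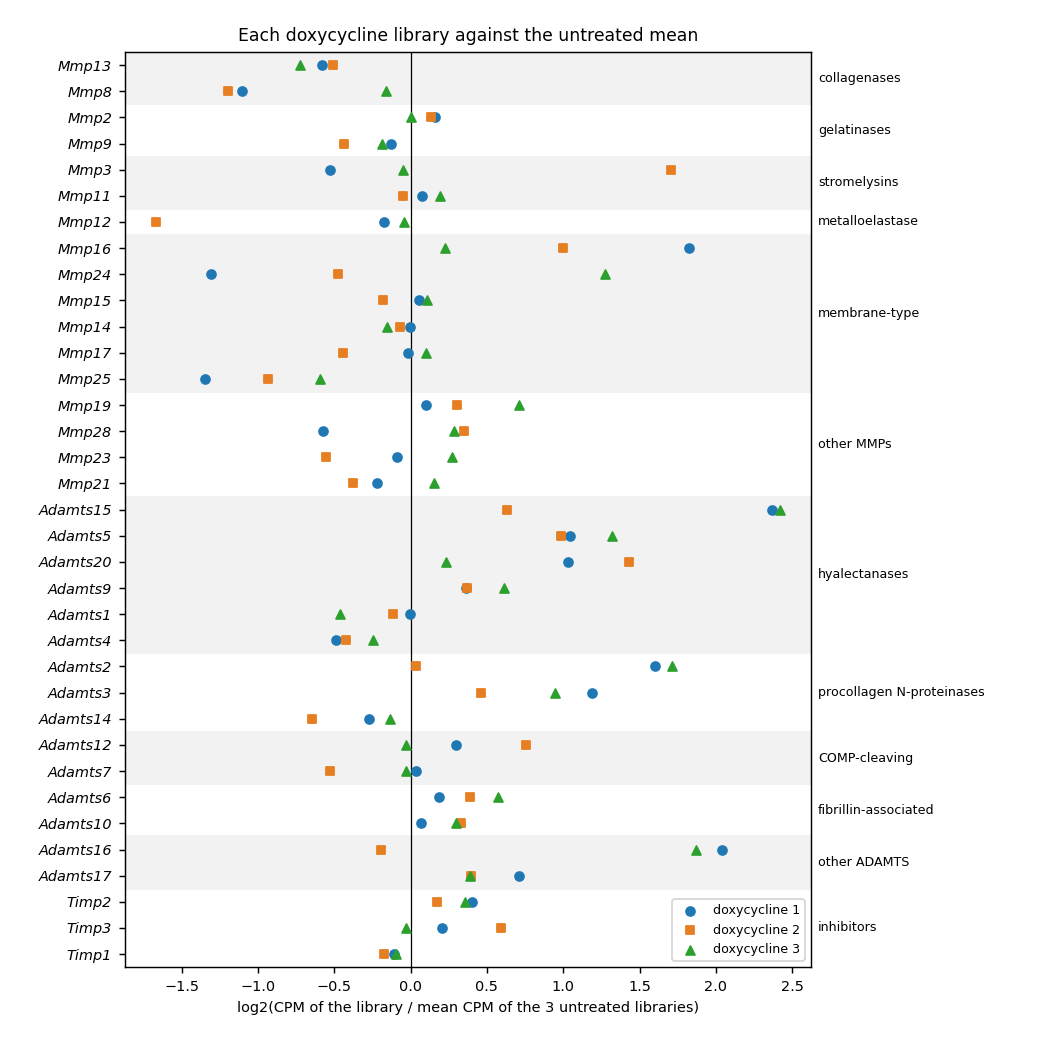
For each tested member the log2 ratio of each doxycycline library to the mean of the 3 untreated libraries is plotted, with 1 colour and shape per library. Doxycycline replicate 2 (orange squares) lies far to the left of the others for Adamts15, Adamts2, Adamts16 and Mmp12 and far to the right for Mmp3.

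Among related genes that are not members, Vcan rose beside Adamts5 and Adamts15. A list of 53 genes held ADAMTS-like proteins, other inhibitors, the plasminogen system, activators, ADAM sheddases, further collagen proteases and substrates. Of 46 tested, 6 were higher and 1 lower (median log2 fold change 0.04), against 2.84% and 2.18% of all genes. Vcan, versican, a large proteoglycan cut by the hyalectanases, had 699, 828 and 500 untreated counts and 1576, 1064 and 2380 after doxycycline, with no overlap (46.2 ± 10.8 and 118 ± 40.0 CPM, 1.35 on the log2 scale, edgeR adjusted p = 0.0315). Acan, aggrecan, was not tested and had 4, 4 and 5 counts against 75, 4 and 151, so doxycycline replicate 2 stayed at the untreated level. Comp, a substrate of Adamts7 and Adamts12, had 35, 38 and 29 counts against 52, 93 and 51 and did not pass (log2 fold change 0.99, edgeR adjusted p = 0.138).

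Of 6 ADAMTS-like and related secreted proteins, which resemble the ADAMTS enzymes without being proteases, 3 were higher. Adamtsl1 had 9, 6 and 19 counts against 97, 33 and 165 (log2 fold change 3.14, edgeR adjusted p = 0.0350). Adamtsl2, which binds fibrillin and a TGF-beta binding protein, had 56, 33 and 35 counts against 85, 115 and 140 (1.46, adjusted p = 0.0474), and Papln, papilin, had 237, 431 and 246 against 440, 517 and 733 (0.94, adjusted p = 0.0443). None of the 3 overlapped between groups. Pcsk5, a convertase that cuts protein precursors at basic residues, rose from 15, 5 and 9 counts to 176, 54 and 187 (3.88, edgeR adjusted p = 0.0188). Of 8 ADAM sheddase genes, Adam12 rose from 32.7 ± 4.92 to 61.2 ± 11.1 CPM (0.90, edgeR adjusted p = 0.0247) and Adam15 fell from 97.5 ± 7.66 to 67.9 ± 4.58 CPM (-0.52, adjusted p = 0.0271). Adam15 did not pass with offsets for GC content and length (-0.37, adjusted p = 0.0720).

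Of the inhibitors and plasminogen system genes tested, none passed the threshold in edgeR. At an unadjusted p under 0.05, 1 of 6 other inhibitors tested was higher and 2 of 3 plasminogen system genes were lower. Over all genes tested, 13.1% were higher and 10.8% lower by that rule. A2m, the gene of the broad protease inhibitor alpha-2-macroglobulin, did not pass the filter on low counts and had 2, 1 and 0 counts against 36, 4 and 56, with no overlap. Plau, the urokinase gene, had 1610, 1741 and 1532 counts against 940, 1475 and 1165 (log2 fold change -0.40, edgeR adjusted p = 0.116), and the gene of its receptor, Plaur, had 1340, 1471 and 1524 against 852, 1254 and 1149 (-0.37, adjusted p = 0.0793). On the CPM scale both were below the untreated range in every doxycycline library. Plat, the other plasminogen system gene tested, had 2345, 2631 and 2658 counts against 2326, 2847 and 3008. Its CPM lay above the untreated range in every doxycycline library (log2 fold change 0.15, edgeR adjusted p = 0.222). The 7 calls in this list were not stable to leaving out libraries, since 0 higher and 0 lower genes passed when any untreated library or doxycycline replicate 3 was left out. Leaving out doxycycline replicate 1 gave 2 higher and 1 lower, and leaving out doxycycline replicate 2 gave 11 higher and 4 lower. Vcan also did not pass in limma-voom (adjusted p = 0.0554) or without the filter on low counts (adjusted p = 0.0918). Doxycycline replicate 2 was the lowest of its group for every called gene of this list but Adamtsl2, as it was for Adamts15 and Adamts2. That holds for Adam15, which fell, and for Papln by a small margin (35.5 CPM against 36.9 in replicate 1). The same 5 of 12 fibroblast and 9 of 15 muscle markers were higher beside these genes, and their part was not tested.

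**Figure D5:**
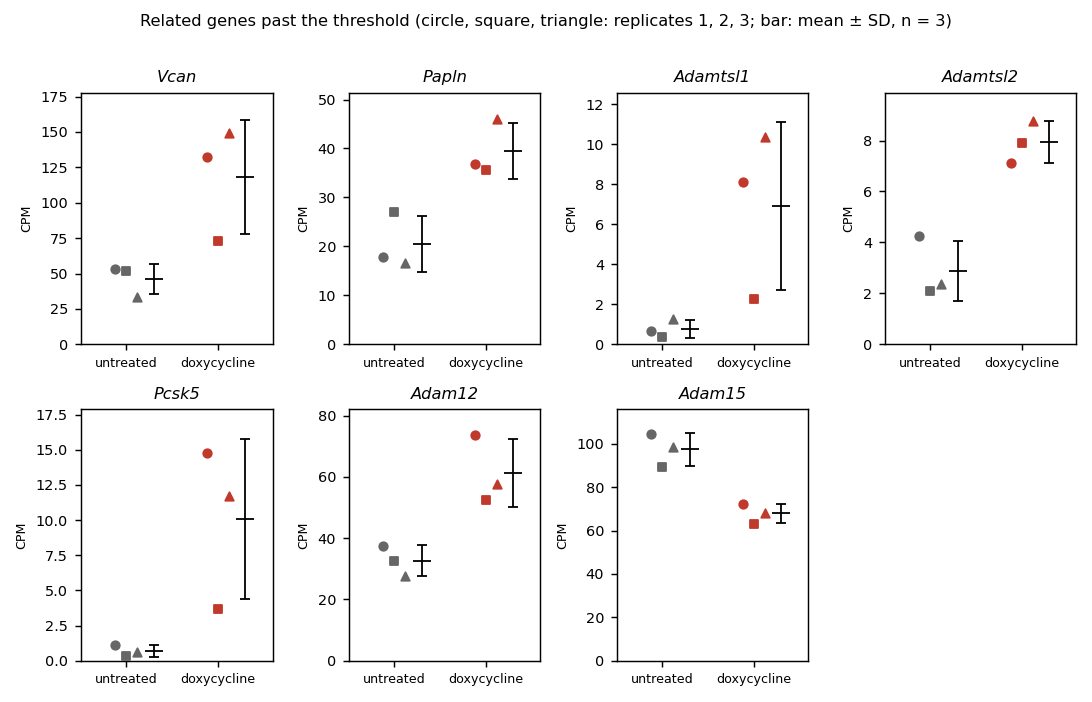
CPM of the 7 related genes past the threshold is plotted from 0 in each library (untreated grey, doxycycline red, mean ± SD beside each group, n = 3). All doxycycline libraries lie above the untreated ones for 6 genes and below them for Adam15. Doxycycline replicate 2 (square) is the lowest of its group for every gene but Adamtsl2.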

How the data were processed

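The authors deposited raw read counts per gene, made with TopHat2 2.0.8, TopHat and HTSeq on mm9, per the submitters' processing notes. Whether strand was used, and how multiply mapped reads were counted, is not stated. Of 21761 rows, 90 without a gene name (0.0361% to 0.0402% of counts) were left out of library sizes and tests. Groups and replicate numbers came from the sample titles. Counts were filtered with filterByExpr, scaled by TMM (factors 0.985 to 1.02) and tested in R 4.3.3 with edgeR 4.0.16 (robust glmQLFit and glmQLFTest, two-sided, Benjamini-Hochberg adjustment). SE is the log2 fold change over the square root of F, with 95% intervals from the t distribution. CPM uses TMM-scaled totals. Alternatives were DESeq2 1.42.0, limma-voom (limma 3.58.1), other scaling, filters, GC and length offsets, a replicate block and leaving out each library. The tests were checked on simulated data.

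Exonic length, GC content and exon overlap came from GENCODE M21 (GRCm38), not the authors' mm9, and matched 99.3% of the genes tested, and promoters came from RefSeq (GRCm38.p6). No replicates were alike within counting noise (chi-square statistics of 5.17 to 29.8 times their degrees of freedom). By rule, counts in every library are given for members past the threshold, the most abundant member and that with the smallest p of each role, and every Timp gene, then by p up to 25 in all. Other members given in full, such as Adamts4, Adamts9, Adamts3, Mmp8 and Mmp9, were chosen after their values were seen. So were Plau, Plaur, Plat, Comp, Acan and A2m. Members and lists were chosen with earlier results of these data known. Limits for a count of 0 use 3 counts over the group and cover counting error only. A marker and an exon overlap are not reported here.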

Additional observations from a re-analysis of the deposited data

How the results depend on the processing

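Of the 35 members tested, those other than 10 Mmp genes kept the sign of their log2 fold change under every alternative run. The cause of the changes below was not tested, except that leaving out a library or filtering leaves fewer samples or genes. Members higher numbered 5 with DESeq2, 1 with limma-voom and 0 to 6 without 1 library, and members lower numbered 1 with DESeq2 and 0 to 1 without 1 library. The related genes higher numbered 10 with DESeq2 and 0 to 11 without 1 library, and those lower 3 with DESeq2, 0 with GC and length offsets and 0 to 4 without 1 library. Over all genes, 877 were higher and 790 lower with DESeq2, 261 higher with limma-voom, and 11 to 1244 higher and 12 to 866 lower without 1 library. Leaving out any library but doxycycline replicate 2 left 0 members called. The median log2 fold change of the members tested was 0.24 with GC and length offsets and 0.01 to 0.26 without 1 library.

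Signs turned with GC and length offsets for Mmp14 (0.0253), Mmp15 (0.18), Mmp17 (0.0211) and Mmp23 (0.0642), with upper-quartile scaling for Mmp15 (0.0311) and with limma-voom for Mmp24 (-0.0845). Without 1 library the log2 fold change ran from -0.0129 to 0.13 for Mmp11, from -0.0612 to 0.0765 for Mmp15, from -0.22 to 0.0433 for Mmp17, from -0.33 to 0.0745 for Mmp21, from -0.31 to 0.10 for Mmp23, from -0.81 to 0.65 for Mmp24, from -0.0800 to 0.31 for Mmp28, from -0.27 to 1.33 for Mmp3 and from -1.16 to 0.10 for Mmp8. Genes of few counts, such as the 11 members not tested, were too low at this depth to test.

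The replicate numbers are shared by the groups, and the labels do not say what a number marks. Libraries of the same number did not deviate together from their group means (r = -0.00976, -0.0747 and 0.0155 across genes). With 3 libraries per group that differ in tissue markers, these values cannot show whether libraries of a number share a day or batch. With the replicate block, 0 members, 3 related genes and 215 of all genes were higher and 179 of all genes lower, and Mmp24 was at -0.0361. Not every library correlated best with its own number.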
